A study of Mus musculus with 10 samples.

Results

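The RNA-seq libraries of Pax5 R31Q/- pro-B cells were compared with those of Pax5-/- cells, to describe how far gene expression in cells with the Pax5-R31Q protein differs from that in cells without Pax5. Both genotypes were measured in 2 libraries each, 4 of the 10 samples of the series, and the comparison covered the 13139 genes with a value of at least 1 TPM (transcript abundance scaled to gene length and to a fixed total) in 1 of these 4 libraries, of 25579 genes in all. Tests, adjusted p-values and percentages are over the 13436 genes that reach 1 TPM in 1 of the 8 libraries of the fit, which include these. At the edge of this filter, the highest value of *BC016579* in the 4 libraries was 1.0008 TPM and that of *Phospho1*, which was left out, was 0.9998 TPM. All cells were sorted ex vivo from the bone marrow of C57BL/6 mice. The Pax5 R31Q/- mice carried an R31Q allele, made by CRISPR/Cas9 editing of zygotes together with silent changes for genotyping, and a *Pax5* null allele, so that any Pax5 protein came from a single allele. The Pax5-/- cells came from Pax5(fl/fl) Vav-Cre mice, in which the *Vav* promoter drives Cre recombinase in blood-forming cells and Cre deletes the floxed gene. The 2 libraries each of Pax5+/+ and Pax5+/- pro-B cells entered the fit and are given for orientation. GEO labels the Pax5-/- cells as progenitor cells and the others as pro-B cells. How the Pax5-/- cells were gated is not stated, and so genotype and sort cannot be told apart in any difference given here. The ages of the mice used for RNA-seq are not in the labels.

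Pax5 is a transcription factor that commits lymphoid progenitors to the B cell lineage. It binds DNA through its paired domain, activates genes of the pre-B cell receptor pathway and of B cell transcription, and represses genes of other blood lineages. Progenitors without it start the pro-B cell program but do not complete it and can still give rise to other lineages. Arginine 31 lies in the paired domain, and the R31Q protein has glutamine in its place.

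*Pax5* itself, on chromosome 4 from 44524748 to 44710694 (GRCm38, minus strand), had 306 and 293 TPM in the R31Q/- libraries and 1242 and 1409 TPM in the -/- libraries. The value was thus higher where the gene is floxed and deleted, with 2 libraries apart from 2, and a value per gene does not show which exons the reads came from. It therefore does not check the label. The recovered depth was 34488572 and 32458750 reads for R31Q/- and 21625880 and 33248885 reads for -/-, the first -/- library being the shallowest of the 8. Spearman's correlation across genes between the libraries of a genotype was 0.975 for R31Q/- and 0.962 for -/-. Of 13 pro-B markers, none was below 1 TPM in all 4 libraries, with summed levels of 14656 and 15186 TPM in R31Q/- and of 8756 and 8312 TPM in -/-, and 3 were called higher and 0 lower in R31Q/-. Markers of progenitors summed to 60.9 and 67.7 TPM in R31Q/- against 621 and 549 TPM in -/-, with 3 of 6 called lower. Those of plasma cells summed to 167 and 131 TPM against 383 and 568 TPM, with 1 of 4 called lower. Markers of T and NK cells summed to 8.99 and 6.26 TPM in R31Q/- against 66.4 and 47.2 TPM in -/-, with 4 of 8 below 1 TPM in the 4 libraries. Markers of myeloid cells summed to 996 and 948 TPM against 2072 and 318 TPM, so that the first -/- library stood highest and the second lowest.

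The values were fitted by limma as log2(TPM + 1), where the added 1 shrinks differences between low levels. Calls needed more than a 3-fold difference on this scale, an adjusted p-value under 0.05 and more than 5 TPM as the mean of R31Q/- or -/-, and immunoglobulin genes were not called. Of the 13436 genes tested across the 8 libraries, 365 (2.72%) were called higher and 300 (2.23%) lower in R31Q/- than in -/- cells, 665 (4.95%) in either direction. These shares are the background for the counts of list members below. At an adjusted p-value under 0.05 alone, 2677 genes (19.9%) were higher and 1978 (14.7%) lower. In every called gene both R31Q/- libraries lay on the same side of both -/- libraries, which was also the case for 43.0% of all genes tested upward and for 29.4% downward. The smallest called difference was 1.588 on the log2 scale, of *Grk3*, and the largest that failed on fold alone was 1.584, of *Sorcs2*. The median log2 difference of all genes tested was 0.13, and 0.01 after median-ratio scaling or quantile normalization. Median-ratio scaling also moved the balance of calls to 325 higher and 340 lower. Without the second -/- library, 551 genes were called higher and 324 lower. With limma-voom on the recovered reads, a fit chosen after seeing the data, 372 genes were called higher and 402 lower. Wherever a list below has 0 calls in a direction limma-voom also called 0, with the exception of 1 survival gene. For a single gene, permuting 2 and 2 libraries gives an exact two-sided p of 0.333 at the least, and the adjusted p-values depend on the variance that limma pools over genes.

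**Figure D1:**
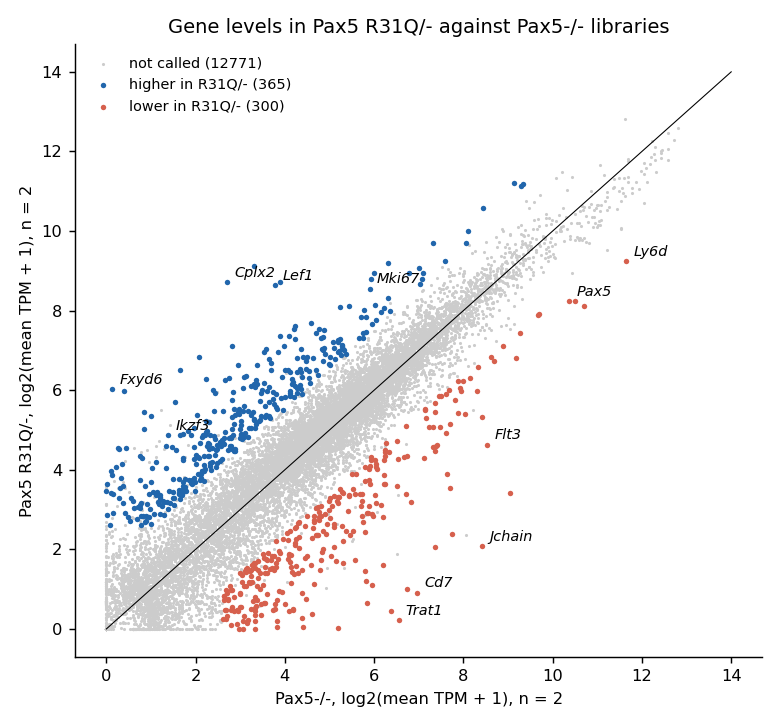
Mean level of each of 13436 genes in Pax5-/- (horizontal) and Pax5 R31Q/- libraries (vertical), both as log2 of the mean TPM plus 1 with n = 2, with called genes in color and the line of equal levels. Genes called higher in R31Q/- (365) lie above the line, with *Cplx2* and *Fxyd6* farthest from it, and those called lower (300) below it, with *Jchain* and *Trat1* farthest; some uncalled points far from the line are immunoglobulin genes or failed the test.

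The called genes stood near their Pax5+/+ level in R31Q/- cells as a group. Those called higher had a median level of 33.9 TPM in R31Q/-, 5.99 TPM in -/-, 36.6 TPM in +/+ and 37.2 TPM in +/- cells. Their level in R31Q/- was at a median of 105% of that in +/+ (interquartile range 75.2% to 130%), while in -/- it was 18.9% (11% to 28%). Of these genes, 302 lay between 50% and 200% of the +/+ level in R31Q/- cells, 39 below and 23 above, and 1 was at 0 in +/+. The genes called lower had a median of 3.54 TPM in R31Q/-, 25.4 TPM in -/-, 3.22 TPM in +/+ and 3.52 TPM in +/- cells. Their R31Q/- level was at a median of 98.0% of +/+ (71.1% to 161%), with 199 of 300 between 50% and 200%, 44 below and 52 above, and 5 at 0 in +/+. The calls used the R31Q/- and -/- libraries, so these medians describe the called genes and are no test. On the fitted scale the difference exceeded 10-fold for 39 genes called higher and 35 called lower. Of the genes called higher, 49 had a mean under 1 TPM in -/-, and of those called lower, 69 had a mean under 1 TPM in R31Q/-.

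Among the genes with the largest rise were *Cplx2*, *Fxyd6*, *Rsph1*, *Lef1*, *Pcp4l1*, *Cdc25b*, *Smtnl2*, *Adgrl2* and *Cacna1e*. *Cplx2*, which encodes complexin-2, a regulator of vesicle fusion, had 417 and 419.8 TPM in R31Q/- and 6.43 and 4.64 TPM in -/- libraries, a log2 difference of 6.02 (standard error 0.18, adjusted p = 4.07e-06 from limma). Its level in +/+ libraries was 588 and 793 TPM. Thus *Cplx2* was abundant in each genotype with Pax5 or Pax5-R31Q and under 7 TPM in -/- cells. *Fxyd6*, which encodes a regulator of the sodium pump, had 65.1 and 63.1 TPM in R31Q/- and 0.111 and 0.0790 TPM in -/- libraries. *Rsph1*, which encodes a radial spoke protein of cilia, had 59 and 65 TPM against 0.452 and 0.192 TPM. *Cdc25b*, which encodes a phosphatase that promotes entry into mitosis, had 463 and 374 TPM against 14.9 and 12.7 TPM. These genes were each at 15 TPM or less in both -/- libraries. *Smtnl2* had 121 and 107 TPM against 3.61 and 2.78 TPM. *Adgrl2*, which encodes an adhesion receptor coupled to G proteins, had 44 and 40.8 TPM in R31Q/-, 0.642 and 0.971 TPM in -/- and 21.6 and 23.2 TPM in +/+ libraries. *Cacna1e*, which encodes a subunit of a voltage-gated calcium channel, had 49.9 and 29.7 TPM in R31Q/-, 0.369 and 1.61 TPM in -/- and 17.6 and 26.1 TPM in +/+ libraries. *Adgrl2* and *Cacna1e* therefore stood higher in both R31Q/- libraries than in both +/+ libraries, whereas *Cplx2*, *Fxyd6*, *Cdc25b* and *Smtnl2* stood lower.

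Genes of the pre-B cell receptor and the B cell receptor were in part higher in R31Q/- cells. Of 9 listed genes 8 were tested, 5 passed limma's adjusted threshold with a higher level, 3 of them were called higher and 0 lower (0 lower at an unadjusted p-value under 0.05), and their median log2 difference was 1.26 beside 0.13 for all genes. *Cd79a*, which encodes the signaling chain Igα, had 2405 and 2289.9 TPM in R31Q/- and 634 and 488 TPM in -/- libraries, a log2 difference of 2.07 (standard error 0.23, adjusted p = 0.000642 from limma). *Vpreb3*, a relative of the surrogate light chain genes, had 2234 and 2240.2 TPM against 595 and 662 TPM. *Cd79a* and *Vpreb3* were thus expressed in -/- cells, at a lower level. The surrogate light chain genes *Igll1* and *Vpreb1* had an adjusted p-value under 0.05 and differences under 3-fold. *Igll1* had 2722 and 3017 TPM in R31Q/- and 1298 and 1080.2 TPM in -/-, and *Vpreb1* 2386 and 2746 TPM and 1107 and 1042 TPM. *Cd79b*, which encodes Igβ, had 1399 and 1324 TPM against 1181 and 1083 TPM and did not pass the test (adjusted p = 0.099 from limma).

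Among 24 B-lineage transcription factors, 6 were called higher and 1 lower, with a median log2 difference of 0.25, and 2 were called lower without the first -/- library. *Lef1*, which encodes a transcription factor of the Wnt pathway, had 383 and 414 TPM in R31Q/- and 7.41 and 18.2 TPM in -/- libraries, a log2 difference of 4.97 (standard error 0.36, adjusted p = 9.33e-05 from limma). *Ikzf3*, which encodes Aiolos, a relative of Ikaros, had 33.8 and 22.4 TPM against 1.338 and 1.90 TPM. *Id3*, which encodes an inhibitor of E proteins, had 251 and 303 TPM against 40.8 and 43.7 TPM. In these genes both R31Q/- libraries lay at least 5-fold above both -/- libraries. *Irf4*, which acts redundantly with *Irf8* at the pre-B cell stage, had 130.3 and 96.5 TPM against 31.1 and 31.1 TPM. The E protein gene *Tcf3* had 869 and 794 TPM against 265 and 269 TPM, and *Bach2*, which encodes a repressor, had 79.5 and 48.4 TPM against 19.9 and 19.4 TPM. Both lay close to the fold threshold. *Tcf3* fell to 1.51 and *Bach2* to 1.49 on the log2 scale after median-ratio scaling, and to 1.57 and 1.26 without the first R31Q/- library, and were then not called. *Irf8*, which directs cells to dendritic and myeloid fates and acts in B cells as well, was called lower with 118 and 106 TPM against 276 and 506 TPM, but not without the second -/- library (log2 difference -1.29). In +/+ libraries *Irf8* had 199 and 189 TPM, between R31Q/- and -/-. *Ebf1*, which specifies the B cell lineage together with Pax5, had 409.6 and 387 TPM in R31Q/- and 143 and 166 TPM in -/-, a log2 difference of 1.37 that passed the test (adjusted p = 0.000197 from limma) under 3-fold. *Spib* had 296 and 246 TPM against 159 and 266 TPM, and its libraries overlapped.

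**Figure D2:**
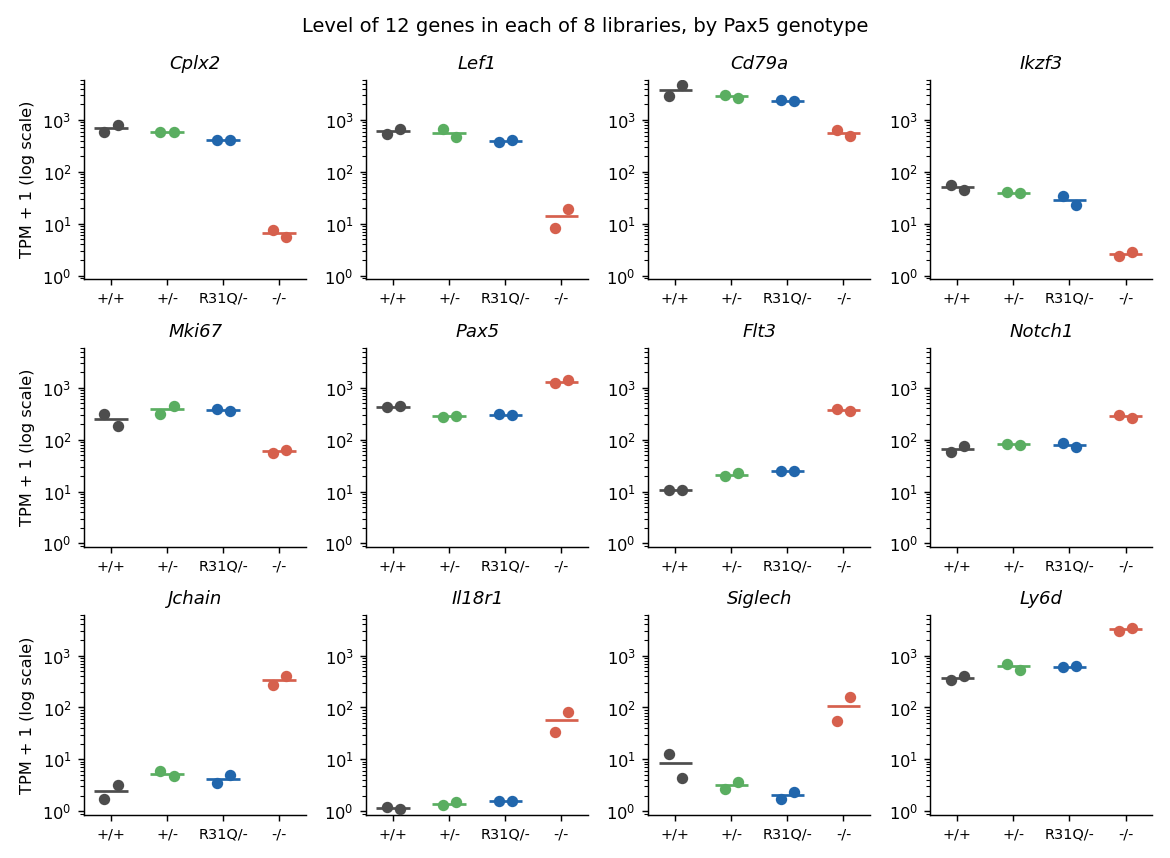
TPM plus 1 on a log axis for 12 genes in each of the 8 libraries, by *Pax5* genotype, with a point per library and a line at the mean of the 2 libraries. *Cplx2*, *Lef1*, *Cd79a*, *Ikzf3* and *Mki67* have their 2 -/- points below all others, and *Pax5*, *Flt3*, *Notch1*, *Jchain*, *Il18r1*, *Siglech* and *Ly6d* have them above all others.

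In the signaling pathway of the B cell receptor, 1 of 25 genes was called higher, *Cd72*, and 2 were called lower, among them *Rasgrp3*, where 4.95% of all genes were called in either direction, with a median log2 difference of -0.01. *Cd72*, which encodes an inhibitory receptor, had 159 and 113 TPM in R31Q/- and 33.4 and 42.4 TPM in -/-, and was not called without the first R31Q/- library (log2 difference 1.57). *Rasgrp3*, which encodes an activator of Ras, had 1.82 and 2.19 TPM against 11.7 and 24 TPM, and 8.22 and 10.1 TPM in +/+ libraries. *Blnk*, which encodes the adaptor of the pre-B cell receptor, had 982 and 949 TPM against 613 and 627 TPM (log2 difference 0.64, adjusted p = 0.0107 from limma), and *Blk*, a kinase gene of the Src family, 167 and 171 TPM against 256 and 325 TPM (log2 difference -0.77, adjusted p = 0.0225 from limma). Both passed the test below 3-fold, in opposite directions. Of 13 inhibitory receptor genes, 3 were called higher and 2 lower, and 3 and 4 with a pseudocount of 0.1 or 0.5 or with limma-voom. Their median changed sign with the scaling, from 0.10 to -0.02 after median-ratio scaling. *Fcrla*, which encodes an Fc receptor-like protein of B cells, had 146 and 99 TPM against 6.06 and 15 TPM. *Fcrl1*, of the same family, was called lower with 3.41 and 3.57 TPM against 18.3 and 17 TPM, as was *Pirb*, not called without the second R31Q/- library (log2 difference -1.56) or the first -/- library (-1.50).

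Genes of V(D)J recombination, the joining of antigen receptor gene segments, showed a single call. Of 15 genes 1 was called higher, *Rag2*, and 0 lower (2 at an unadjusted p-value under 0.05), with a median log2 difference of 0.58. This share of calls is near that of all genes, 4.95% in either direction. Leaving out 1 of the 4 libraries gave between 2 and 3 genes called higher. *Rag2*, a subunit of the recombinase, had 133 and 131 TPM in R31Q/- and 22 and 35 TPM in -/- libraries, a log2 difference of 2.21 (standard error 0.20, adjusted p = 0.000239 from limma). *Rag1*, the other subunit, had 754 and 700.5 TPM against 283 and 331 TPM, a log2 difference of 1.24 (adjusted p = 0.00384 from limma). *Dntt*, which encodes the terminal transferase that adds nucleotides at the joints, had 3394 and 3525 TPM against 3566 and 3072 TPM, overlapping libraries and no passed test (log2 difference 0.06, 95% confidence interval -0.24 to 0.37). *Polm*, which encodes DNA polymerase µ, had 1.87 and 2.01 TPM in R31Q/- and 1.26 and 0.919 TPM in -/- against 34.8 and 31.1 TPM in +/+ libraries, and did not pass the test between R31Q/- and -/- (adjusted p = 0.0966 from limma).

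Genes of mitosis formed the largest called group among the lists. Of 26 genes 23 were called higher in R31Q/- and 0 lower (0 at an unadjusted p-value under 0.05), all 26 passed limma's adjusted threshold upward, and the median log2 difference was 2.38. In the alternatives that change the fit, between 20 and 23 of them were called. *Mki67*, a marker of cycling cells, had 394 and 353 TPM in R31Q/-, 53.6 and 63.6 TPM in -/- and 311 and 185 TPM in +/+ libraries. *Ccnb1*, which encodes cyclin B1, had 104 and 98.5 TPM against 9.04 and 14.9 TPM, a log2 difference of 3.02 (standard error 0.33, adjusted p = 0.000588 from limma). *Cdk1*, its kinase partner, had 82.4 and 77 TPM against 13.8 and 14.6 TPM. Each of these genes was at least 4-fold lower in both -/- libraries than in both R31Q/- libraries. The spindle genes *Nusap1* and *Kif11* had the largest differences, 3.48 and 3.29 on the log2 scale. *Cdc20*, *Cenpa* and *Ccnb2* were higher by less than 3-fold. Genes of DNA replication were less far apart. Of 23 genes, 2 were called higher, *Ccne2* and *Rrm2*, and 0 lower (2 at an unadjusted p-value under 0.05), with a median log2 difference of 0.62. Over all genes tested, 2.72% were called higher and 2.23% lower. *Ccne2*, which encodes cyclin E2, had 42.7 and 52.3 TPM against 5.33 and 9.56 TPM, and *Rrm2*, a subunit of ribonucleotide reductase, 495 and 485 TPM against 101 and 116 TPM. *Pcna*, the sliding clamp, had 1586 and 1881 TPM against 584 and 772 TPM, a log2 difference of 1.36 (adjusted p = 0.00156 from limma). *Mcm2*, a subunit of the replicative helicase, had 402 and 421 TPM against 519 and 479.8 TPM, without passing the test (adjusted p = 0.068 from limma). In bulk samples, a smaller share of cycling cells and less RNA per cell cannot be told apart.

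**Figure D3:**
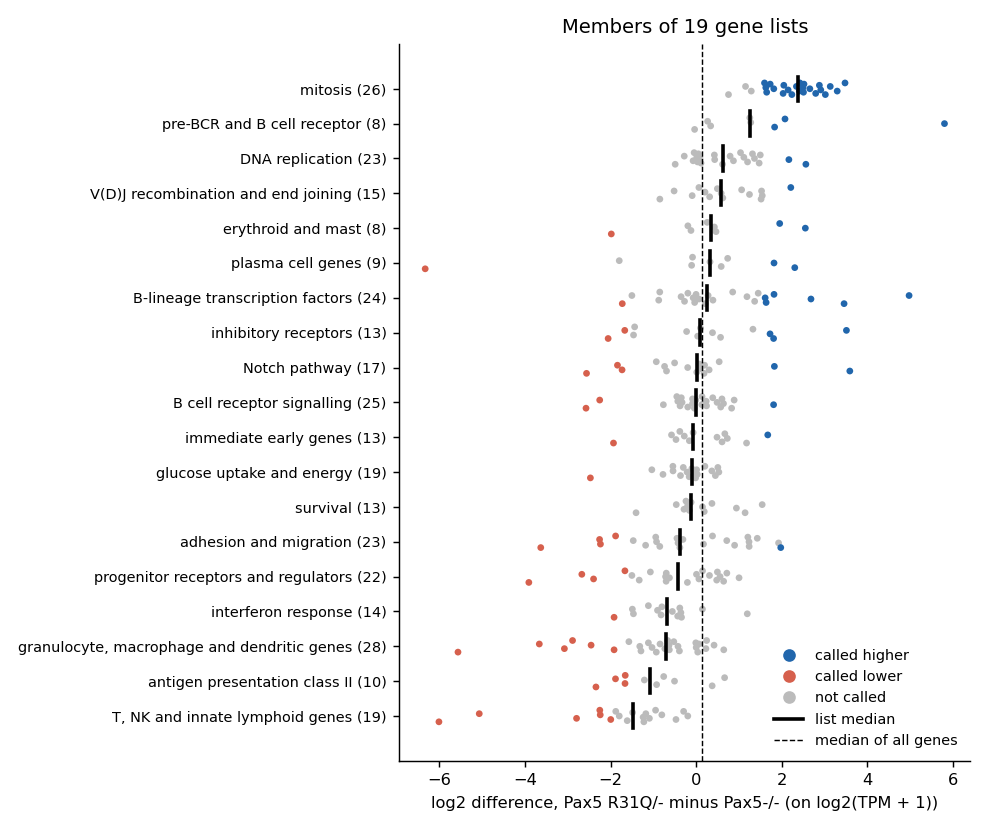
Log2 difference (R31Q/- minus -/-, on log2(TPM + 1)) of each tested member of 19 gene lists, with the number tested in parentheses, blue points for members called higher, red for those called lower, black bars at list medians and a dashed line at the median of all genes (0.13). The mitosis list (median 2.38) lies furthest to the right and the list of T, NK and innate lymphoid genes (median -1.48) furthest to the left.

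The 10 genes with the largest difference among those called lower in R31Q/- cells were *Jchain*, *Trat1*, *Cd7*, *ccdc198*, *Ifitm1*, *Siglech*, *Gpr25*, *Cox6a2*, *Il18r1* and *5830411N06Rik*. *Jchain*, which encodes the joining chain of IgM and IgA and is made by plasma cells and plasmacytoid dendritic cells, had 2.46 and 4.02 TPM in R31Q/- and 273 and 408 TPM in -/- libraries, a log2 difference of -6.33 (standard error 0.35, adjusted p = 4.16e-05 from limma). *Trat1*, an adaptor gene of T cells, had 0.210 and 0.107 TPM against 57.9 and 127 TPM. *Gpr25*, which encodes a receptor coupled to G proteins, had 4.76 and 3.63 TPM against 195 and 233 TPM. *Ifitm1*, which encodes an interferon-induced membrane protein, had 8.72 and 10.5 TPM against 651 and 408 TPM. In each of these genes the R31Q/- level was within 11 TPM and the -/- level above 50 TPM. *Cox6a2*, which encodes a subunit of cytochrome c oxidase, had 2.94 and 3.34 TPM against 123 and 206 TPM, and *ccdc198* 0.308 and 0.441 TPM against 51.9 and 112 TPM.

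Of 30 listed T, NK and innate lymphoid genes 19 were tested, 6 were called lower and 0 higher (0 at an unadjusted p-value under 0.05), 16 passed limma's adjusted threshold with a lower level in R31Q/-, and the median log2 difference was -1.48. *Cd7*, which encodes a surface protein of T and NK cells, had 0.828 and 0.918 TPM in R31Q/- and 91.8 and 156 TPM in -/- libraries, a log2 difference of -6.01 (standard error 0.41, adjusted p = 7.76e-05 from limma). *Il18r1*, which encodes a chain of the interleukin 18 receptor, had 0.601 and 0.538 TPM against 33 and 80.3 TPM. Both were below 1 TPM in R31Q/-. *Gata3* and *Tcf7* encode regulators of T cell fate. *Gata3* had 0.179 and 0.183 TPM against 1.95 and 1.63 TPM and *Tcf7* 54.8 and 55.1 TPM against 101 and 92.1 TPM, and both passed the test and were not called (log2 differences -1.24 and -0.80 on the fitted scale). The added 1 shrinks the difference of *Gata3*, whose mean in -/- was 9.91 times that in R31Q/- as TPM. *Cd28*, a costimulatory receptor gene, had 0.183 and 0.170 TPM against 1.76 and 5.07 TPM, with a mean under 5 TPM in both genotypes. The chains of the CD3 complex, *Cd3d*, *Cd3e* and *Cd3g*, stayed below 1 TPM in every library and were not tested.

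The list of granulocyte, macrophage and dendritic genes held 28 tested genes, with 6 called lower and 0 higher (0 at an unadjusted p-value under 0.05) and a median log2 difference of -0.70. Without the second -/- library 10 were called lower. *Siglech*, a lectin gene that marks plasmacytoid dendritic cells, had 0.694 and 1.33 TPM in R31Q/- and 54.4 and 158 TPM in -/- libraries (log2 difference -5.56, standard error 0.60, adjusted p = 0.000523 from limma). *Fcer1g* and *Tyrobp*, which encode signaling adaptors of Fc and NK receptors, had 23.3 and 19.2 TPM against 153 and 174 TPM and 42 and 36.1 TPM against 298 and 380.1 TPM. *Itgax*, which encodes CD11c, had 0.431 and 0.373 TPM against 13.7 and 20.5 TPM. In these genes both -/- libraries were high. In contrast, the granule gene *Mpo* had 29 and 23.3 TPM against 132 and 16.6 TPM, so that the first -/- library was above and the second below both R31Q/- libraries. *Csf1r*, the receptor gene of macrophage growth, had 5.22 and 4.36 TPM against 10.4 and 5.04 TPM and did not pass the test (adjusted p = 0.2 from limma). Of 5 markers of plasmacytoid dendritic cells, *Siglech*, *Bst2*, *Ccr9* and *Ly6d* were called lower, and the 5 summed to 764 and 801 TPM in R31Q/- and to 3481 and 4123 TPM in -/-. Most of this sum was *Ly6d*, which lymphoid progenitors express too, with 593 and 619 TPM against 3039 and 3362 TPM. The part of admixed dendritic cells in the genes called lower was not tested.

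Class II antigen presentation had 10 tested genes, of which 4 were called lower and 0 higher (2 at an unadjusted p-value under 0.05, 1 of them also under limma's adjusted threshold), with a median log2 difference of -1.07. The 4 were *H2-DMa*, *H2-DMb1* and *H2-DMb2*, which encode the chaperone that loads peptides, and *Cd74*, which encodes the invariant chain. The 10 genes summed to 303 and 327 TPM in R31Q/-, 515 and 672 TPM in -/- and 603 and 755 TPM in +/+ libraries. *H2-DMa* had 19.1 and 19 TPM in R31Q/- and 112 and 90.7 TPM in -/- libraries. *Cd74* had 49.7 and 75.7 TPM against 148 and 259 TPM. In +/+ libraries it had 131 and 209 TPM, above both R31Q/- libraries and overlapping those of -/-. Its call was lost without the first R31Q/- library (log2 difference -1.36) or the second -/- library (-1.25). Without the latter, 2 of the 10 were called. The transactivator gene *Ciita* had 1.59 and 1.68 TPM against 2.54 and 2.95 TPM and did not pass the test (adjusted p = 0.108 from limma).

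Progenitor receptors and regulators counted 4 called lower and 0 called higher (6 at an unadjusted p-value under 0.05) of 22 tested, with a median log2 difference of -0.41. *Flt3*, which encodes a cytokine receptor of lymphoid and myeloid progenitors, had 23.6 and 23.9 TPM in R31Q/- and 385 and 356 TPM in -/- libraries, a log2 difference of -3.91 (standard error 0.12, adjusted p = 4.93e-06 from limma). In +/+ libraries it had 9.79 and 9.54 TPM and in +/- libraries 18.8 and 21.6 TPM. The R31Q/- level of *Flt3* was therefore close to that of +/- cells and far from that of -/- cells. *Ly6a*, which encodes Sca-1, had 27.2 and 32 TPM against 209.8 and 177 TPM, and the other called members were *Ly6d* and *Cd34*. *Kit*, the stem cell factor receptor gene, which is part of the study's pro-B gate, had 84.2 and 96.7 TPM against 47 and 42.3 TPM, a difference in the other direction that passed the test below 3-fold (log2 difference 1.0, adjusted p = 0.00283 from limma). *Il7r*, the receptor gene for interleukin 7, had 421 and 379 TPM against 200.3 and 409 TPM, so that the second -/- library lay between those of R31Q/-.

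In the Notch pathway, 2 of 17 genes were called higher and 3 lower, and the list median of 0.01 became -0.11 after median-ratio scaling. *Notch1*, the receptor that directs progenitors to the T cell lineage, had 83.8 and 71.9 TPM in R31Q/- and 298 and 263 TPM in -/- libraries, a log2 difference of -1.84 (standard error 0.16, adjusted p = 0.000183 from limma). *Notch2* had 11.2 and 9.54 TPM against 36.8 and 36.4 TPM. *Dtx4*, a gene of the Deltex family, had 11.6 and 11.6 TPM in R31Q/-, 67.9 and 79 TPM in -/- and 1.58 and 1.59 TPM in +/+ libraries. The level in R31Q/- was thus between those of +/+ and -/-. *Dtx1* was called higher with 6.09 and 4.17 TPM against 0.832 and 0.591 TPM, and not without the first R31Q/- library (log2 difference 1.60, where the mean no longer exceeded 5 TPM). *Heyl*, which encodes a repressor of the Hairy family, had 13.5 and 9.27 TPM against 0 and 0.0312 TPM, the first -/- library being listed at 0. *Hes1*, a main Notch target, had 176 and 173 TPM against 133 and 149.6 TPM and did not pass the test (adjusted p = 0.216 from limma).

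Among 23 genes of adhesion and migration, 1 was called higher and 4 lower, with a median log2 difference of -0.38, and 2 were called higher without the second -/- library. Over all genes tested, 2.72% were called higher and 2.23% lower, so that 1 of 23 called higher is near the share of all genes. *Adgre5*, which encodes CD97, had 139 and 127 TPM in R31Q/- and 29.4 and 37 TPM in -/-. *Itgb7*, an integrin gene of gut homing, had 2.26 and 2.06 TPM against 35.5 and 40.9 TPM, *Emb*, which encodes embigin, 35.9 and 28.9 TPM against 151 and 165 TPM, and the chemokine receptor gene *Cxcr5* 9.53 and 9.80 TPM against 40.9 and 35.8 TPM. In +/+ libraries *Cxcr5* had 14.2 and 31.5 TPM, above both R31Q/- libraries and below both -/- libraries. *Ccr9* was called lower with 1.10 and 0.920 TPM against 4.45 and 15.4 TPM, the second -/- library being the highest. It lost its call without the first R31Q/- library (adjusted p = 0.0679 from limma), without the second (adjusted p = 0.0753 from limma) and without the second -/- library (log2 difference -1.44). *Cxcr4*, which retains cells in the bone marrow, had 789 and 599 TPM against 332 and 255 TPM, a log2 difference of 1.24 (adjusted p = 0.00698 from limma).

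Glucose uptake and energy metabolism held 0 called higher (3 at an unadjusted p-value under 0.05) and 1 called lower of 19 genes, a share near the 4.95% of all genes called in either direction, with a median log2 difference of -0.10. The called gene was *Slc2a6*, which encodes a hexose transporter, with 6.02 and 4.44 TPM in R31Q/- and 31.9 and 34.7 TPM in -/-. *Slc2a1*, the main glucose transporter gene, had 24.4 and 21 TPM against 23.3 and 25.5 TPM, with a log2 difference of -0.10 (95% confidence interval -0.42 to 0.21). Of 13 survival genes 0 were called by limma in either direction, where 4.95% of all genes were called, and the list is too short to tell these apart. At an unadjusted p-value under 0.05, 4 were higher and 2 lower, and limma-voom called 0 higher and 1 lower. *Bcl2l1*, which encodes the survival factor Bcl-xL, had 55.5 and 47.1 TPM in R31Q/-, 17.9 and 16 TPM in -/- and 119 and 109 TPM in +/+ libraries (log2 difference 1.54), and was called higher without the second R31Q/- or the first -/- library. *Bcl2*, another survival factor, had 2.11 and 2.2 TPM against 6.53 and 8.26 TPM (log2 difference -1.40). These survival genes thus lay apart in opposite directions.

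The remaining lists had 2 or fewer calls in a direction, where 2.72% of all genes tested were called higher and 2.23% lower. Of 9 plasma cell genes 2 were called higher, *Irf4* and *Cd38*, and 1 lower, *Jchain*, with 2 lower without the first -/- library, while *Prdm1*, which encodes Blimp-1, had 4.45 and 3.08 TPM in R31Q/- and 2.47 and 1.85 TPM in -/- and did not pass the test (adjusted p = 0.399 from limma). Of 13 immediate early genes, *Egr1* was called higher, with 12.5 and 13.2 TPM against 2.95 and 3.80 TPM, and *Fos* lower, with 1.36 and 2.26 TPM against 9.55 and 9.63 TPM. *Egr1* lost its call without the first -/- library (log2 difference 1.53) and after median-ratio scaling (1.57). Of 14 interferon response genes *Bst2* was called lower, with 99.8 and 112 TPM against 325 and 499 TPM, the median was -0.68, and 3 were called lower without the first -/- library. Among 8 tested erythroid and mast cell genes, *Alas2*, the first enzyme gene of heme synthesis, was called higher with 101 and 78.5 TPM against 23 and 8.83 TPM. In this list 2 genes were called higher and 1 lower, and 1 was called higher without the second -/- library. The 5 erythroid markers summed to 120 and 95.3 TPM in R31Q/- and to 34.4 and 13.0 TPM in -/-, with *Hbb-bs* at 0 in the 4 libraries, and the part of admixed erythroid cells was not tested. *C1qa*, *C1qb* and *C1qc*, complement genes of macrophages that were named after their values were seen, were also called higher, *C1qa* with 11.7 and 6.79 TPM against 1.20 and 1.44 TPM. The list of granulocyte, macrophage and dendritic genes went the other way, with 0 of 28 called higher and 6 lower.

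Of 17 genes that the study names, *Cd2* is named there as a known Pax5 target, and the others were named beside RNA-seq data of some of these libraries and are no independent evidence. Between R31Q/- and -/- cells 3 of them were called higher, *Pcp4l1*, *Heyl* and *Siglecg*, 1 was called lower, *Dtx4*, and 13 were not called. Without the first R31Q/- library 2 were called lower. *Pcp4l1*, a relative of the calmodulin regulator gene *Pcp4*, had 96.5 and 82.9 TPM in R31Q/-, 2.60 and 1.66 TPM in -/- and 195 and 242 TPM in +/+ libraries. *Siglecg*, which encodes an inhibitory lectin of B cells, had 44.2 and 46.3 TPM, 10.6 and 15.9 TPM and 215 and 275 TPM, and was not called without the first -/- library (log2 difference 1.45). Both stood between the -/- and the +/+ level. *Nedd9*, which encodes an adaptor of integrin signaling, had 45.4 and 44.9 TPM in R31Q/-, 18.7 and 19.3 TPM in -/- and 225 and 185 TPM in +/+ libraries, a log2 difference between the former 2 of 1.21 that passed the test below 3-fold (adjusted p = 0.000387 from limma). *Edaradd*, which encodes an adaptor of a death domain receptor, passed the test as well and was not called, with 1.48 and 1.52 TPM against 0.381 and 0.489 TPM. *Rapgef3*, which encodes an exchange factor activated by cyclic AMP, passed the test downward without being called, with 29.98 and 17 TPM in R31Q/- against 44 and 67.3 TPM in -/- (log2 difference -1.23, adjusted p = 0.0192 from limma). *Sh3bp5* passed it downward too, with 46.4 and 43.5 TPM against 58 and 63.9 TPM (log2 difference -0.43, adjusted p = 0.0294 from limma). In contrast, some genes did not pass the test between R31Q/- and -/- cells and were higher in +/+ cells. *Uchl1*, a ubiquitin hydrolase gene, had 15.2 and 14.9 TPM in R31Q/-, 10.8 and 12 TPM in -/- and 128 and 172 TPM in +/+ libraries. *Parvb*, which encodes β-parvin of integrin adhesions, had 12.7 and 11.3 TPM, 10.4 and 10.6 TPM and 59.5 and 77.6 TPM. *Pik3ap1*, which encodes the PI3K adaptor BCAP, had 143 and 115 TPM, 90.5 and 105 TPM and 471 and 497 TPM. In each of these genes both R31Q/- libraries lay above both -/- libraries and far below both +/+ libraries. The 5 nearest to no difference were *Pde9a*, *Dkk3*, *Parvb*, *Klf2* and *Gimap3*. *Pde9a*, which encodes a phosphodiesterase for cyclic GMP, had 0.0696 and 0 TPM in R31Q/-, 0.0483 and 0 TPM in -/-, 15.2 and 9.22 TPM in +/- and 26 and 43.5 TPM in +/+ libraries, with a 95% confidence interval of the log2 difference between R31Q/- and -/- of -0.68 to 0.70. *Dkk3*, of the Dickkopf family, had 0.1 and 0.0614 TPM, 0.0833 and 0.0197 TPM, 5.48 and 3.33 TPM and 7.37 and 8.98 TPM (95% confidence interval -0.49 to 0.57). *Klf2*, a regulator of lymphocyte quiescence, had 22.1 and 13.3 TPM against 15.5 and 25.2 TPM, and *Gimap3*, a GTPase gene of immune cells, 86.4 and 53.9 TPM against 61.5 and 55.4 TPM, with 9.98 and 20.7 TPM in +/+ libraries. A test that is not passed does not show equal levels.

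**Figure D4:**
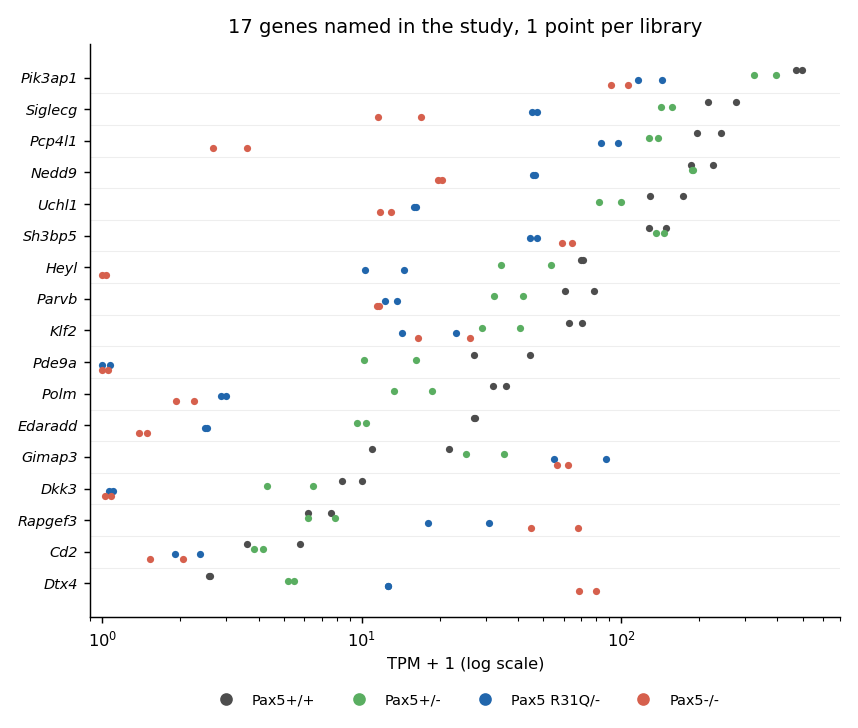
TPM plus 1 on a log axis for the 17 genes named in the study, ordered by their +/+ level, with 1 point per library and a color per *Pax5* genotype. The R31Q/- points of *Pde9a*, *Dkk3*, *Parvb* and *Uchl1* lie beside those of -/- and away from +/+, and those of *Pcp4l1*, *Heyl* and *Siglecg* lie between them.

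Peaks of Pax5 at transcription start sites (TSSs), a readout that the comparison of genotypes did not use, were set beside the calls. They came from ChIP-seq of pro-B cells after 6 d in culture. Each genotype had 1 library, without a replicate check, and the Pax5+/+ library is from Rag2-/- cells. The labels of the R31Q/- ChIP library conflict, since its description attaches R31Q/- to *Rag2* and its genotype field to *Pax5*, and the genotype field was used. No Pax5-/- library was analysed here. The lists held 18821 peaks in R31Q/- and 41983 in +/+ cells. A peak of the R31Q/- list lay within 1 kb of a TSS for 247 of 364 genes called higher (67.9%, exact 95% binomial interval 62.8% to 72.6%) and for 101 of 296 called lower (34.1%, 28.7% to 39.8%). The share was 83.4% of the 9761 genes with a mean above 5 TPM that were not called (82.6% to 84.1%), and 72.0% of all 13098 genes tested that have an annotated TSS. The intervals of the called genes lie below that of the uncalled ones, and that of genes called lower lies below that of genes called higher. They treat genes as independent. Expression level was not matched between these groups. With a window of 5 kb, the shares were 73.9% of genes called higher (69.1% to 78.3%), 47.6% of those called lower, 86.2% of those not called and 76.6% of all genes tested, a value inside the interval of genes called higher. The +/+ list had the same order within 1 kb, with 65.9% of genes called higher, 29.4% of those called lower, 77.4% of those not called and 66.9% of all genes tested. The order is thus not particular to the R31Q/- list. A peak in the +/+ list and none in the R31Q/- list was found for 17 of the genes called higher (4.67%, 2.74% to 7.37%), 9 of those called lower (3.04%) and 318 of all genes tested (2.43%, 2.17% to 2.71%).

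**Figure D5:**
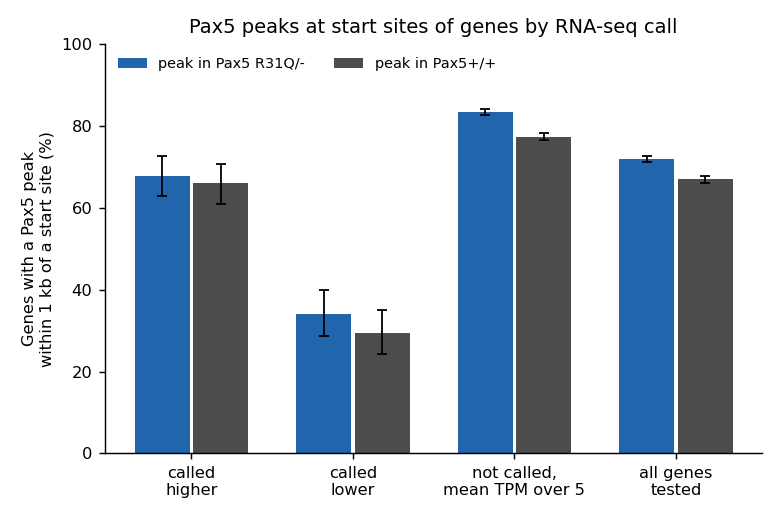
Share of genes (%) with a TSS no more than 1 kb from a Pax5 peak of the R31Q/- (blue) and +/+ (gray) peak lists, for genes called higher and lower in R31Q/-, genes not called with a mean over 5 TPM, and all genes tested, with exact 95% binomial intervals. In the R31Q/- list the share is 67.9% for genes called higher, 34.1% for genes called lower and 83.4% for those not called.

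Promoter sequences of RefSeq (GRCm38.p6) are given for 4 genes called higher whose TSS lies in an R31Q/- peak, and for 2 genes called higher whose TSS lies in a +/+ peak and has no R31Q/- peak within 1 kb. Each runs 5′ to 3′ on the strand of the gene over 300 bases, and the 50 bases from the TSS on are in capitals. The R31Q/- peaks were 699 bp wide at *Cd79a*, 589 bp at *Lef1*, 534 bp at *Irf4* and 360 bp at *Rag2*.
Cd79a, chr7:24897247-24897546, plus strand: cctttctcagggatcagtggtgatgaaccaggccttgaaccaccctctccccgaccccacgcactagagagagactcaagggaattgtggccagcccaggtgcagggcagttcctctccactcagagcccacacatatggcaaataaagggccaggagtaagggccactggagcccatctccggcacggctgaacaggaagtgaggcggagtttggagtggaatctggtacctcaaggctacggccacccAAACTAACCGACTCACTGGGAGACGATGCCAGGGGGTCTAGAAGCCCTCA
Lef1, chr3:131110047-131110346, plus strand: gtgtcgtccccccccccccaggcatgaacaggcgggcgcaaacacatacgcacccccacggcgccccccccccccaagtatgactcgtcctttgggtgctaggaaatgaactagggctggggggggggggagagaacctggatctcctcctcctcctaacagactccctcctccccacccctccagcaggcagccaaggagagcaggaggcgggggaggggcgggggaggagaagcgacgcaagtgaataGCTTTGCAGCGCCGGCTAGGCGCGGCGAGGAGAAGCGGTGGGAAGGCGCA
Irf4, chr13:30748983-30749282, plus strand: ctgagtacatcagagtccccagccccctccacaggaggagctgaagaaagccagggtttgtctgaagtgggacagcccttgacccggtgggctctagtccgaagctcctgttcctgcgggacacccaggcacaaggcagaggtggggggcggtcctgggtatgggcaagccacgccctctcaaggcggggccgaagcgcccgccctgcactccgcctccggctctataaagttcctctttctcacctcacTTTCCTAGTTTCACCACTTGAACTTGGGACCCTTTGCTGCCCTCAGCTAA
Rag2, chr2:101624462-101624761, plus strand: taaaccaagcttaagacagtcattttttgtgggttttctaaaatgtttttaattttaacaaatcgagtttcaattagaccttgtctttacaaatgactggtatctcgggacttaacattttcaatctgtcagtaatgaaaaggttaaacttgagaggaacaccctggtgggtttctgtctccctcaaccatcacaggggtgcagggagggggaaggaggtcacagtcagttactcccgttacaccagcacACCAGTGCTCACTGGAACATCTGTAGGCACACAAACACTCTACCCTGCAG
Siglecg, chr7:43407989-43408288, plus strand: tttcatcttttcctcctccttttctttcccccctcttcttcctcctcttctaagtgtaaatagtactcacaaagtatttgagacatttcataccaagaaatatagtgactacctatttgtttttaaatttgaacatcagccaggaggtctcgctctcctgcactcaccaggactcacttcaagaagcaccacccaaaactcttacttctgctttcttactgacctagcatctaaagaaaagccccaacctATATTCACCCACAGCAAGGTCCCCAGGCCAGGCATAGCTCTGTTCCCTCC
Pcp4l1, chr1:171196219-171196518, minus strand: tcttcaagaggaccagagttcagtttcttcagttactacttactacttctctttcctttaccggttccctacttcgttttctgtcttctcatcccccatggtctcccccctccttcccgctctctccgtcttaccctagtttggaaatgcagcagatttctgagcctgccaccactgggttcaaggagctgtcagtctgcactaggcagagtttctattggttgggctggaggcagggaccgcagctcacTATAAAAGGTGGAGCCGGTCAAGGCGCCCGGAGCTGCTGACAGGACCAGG
The letters GCGTNAC, the core of many Pax5 recognition sequences, were searched on both strands, and 0 of these 6 windows hold them, beside 5.96% of all 32851 promoters in the table. An exact search misses sites that differ from these letters, and few of all promoters hold them. It therefore cannot show that a window lacks a Pax5 site. *Siglecg* and *Pcp4l1* were among the genes called higher in R31Q/- than in -/- cells with no R31Q/- peak listed at the TSS. *Heyl* was another, with 4 peaks of the +/+ list and 2 of the R31Q/- list in the gene or 5 kb around it. *Cplx2*, *Cdc25b*, *Smtnl2* and *Ikzf3* had a peak at their TSS in both lists, whereas *Fxyd6* had none in the gene or 5 kb around it in either list. *Rsph1*, *Adgrl2* and *Cacna1e* had no TSS peak in either list. Of the 17 genes that the study names, 9 had a TSS peak in both lists, 6 in the +/+ list only and 2 in neither. The 6 were the 3 genes called higher, *Siglecg*, *Pcp4l1* and *Heyl*, and 3 that were not called, *Dkk3*, *Pde9a* and *Gimap3*. The study showed *Siglecg*, *Heyl*, *Dkk3* and *Pcp4l1* as examples of genes that lost a TSS peak in R31Q/- cells. Their place among the 6 was therefore set by that choice, and the tally is no independent evidence. The 9 held *Dtx4*, called lower, and 8 that were not called, *Polm*, *Uchl1* and *Nedd9* among them.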

How the data were processed

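RNA-seq of ex vivo-sorted cells was analysed from the TPM values per gene that the authors deposited. Per the study's methods, 50-nt reads from poly(A)-selected RNA were cleared of ribosomal reads with Bowtie2, aligned to GRCm38/mm10 with STAR 2.4.2 and counted on RefSeq genes with featureCounts. The counting strand is not given in the sources used here, and of the 128 genes in the named set, 49 overlap an annotated gene on the other strand and 16 on the same strand. The peak lists deposited by the authors came from MACS and hold positions only.

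Genes with at least 1 TPM in 1 of 8 libraries were fitted on log2(TPM + 1) with limma 3.58.1 (R 4.3.3, empirical Bayes with a trend) over all 4 genotypes, and p-values were adjusted by Benjamini-Hochberg over 13436 genes. The calls left out 419 immunoglobulin genes. All 17371 genes used to recover reads gave whole reads within 0.001 reads, and depth ranged from 21625880 to 34488572 reads. Named genes were *Pax5*, the 10 largest differences in each direction, key members of each gene list with up to 2 further called members in each direction, the genes the study names, and among those the 5 nearest to no difference. Their members and lists were chosen with earlier results of these data known. Replicates were numbered in accession order, and nothing states that the libraries came from separate animals, so that p-values measure the spread between these samples. The alternatives were pseudocounts, filters, scalings, thresholds, fits without 1 library and limma-voom on recovered reads. Values of some listed genes are not reported here.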

Additional observations from a re-analysis of the deposited data

How the results depend on the processing

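Of 1664 values of the 128 named genes under 13 alternatives, 1580 kept their direction and their side of the adjusted p threshold, 46 lost it, 21 gained it and 17 changed sign, and 0 of the 71 called genes changed sign. A fold threshold of 2 gave 894 genes higher and 634 lower. Leaving out 1 library gave between 323 and 551 genes higher and between 282 and 325 lower, the highest count being without the second Pax5-/- library. With a window of 5 kb, 73.9% of genes called higher and 47.6% of those called lower had a TSS peak. The cause was not tested. No paired analysis was possible because the labels carry no replicate numbers. The sign changes were all of genes that were not called. Over the fits without 1 library, the log2 difference ranged from -0.11 to 0.87 for *Btla*, from -2.30 to 0.61 for *Mpo*, from -0.035 to 0.99 for *Il7r*, from -0.044 to 0.17 for *Dntt*, from -0.20 to 0.001 for *Slc2a1*, from -0.36 to 0.19 for *Xbp1*, from -0.0037 to 0.084 for *Dkk3*, from -0.034 to 0.063 for *Pde9a*, from -0.54 to 0.15 for *Klf2* and from -0.11 to 0.56 for *Gimap3*. *Dntt* became -0.064 after median-ratio scaling and -0.047 with limma-voom, and quantile normalization gave -0.11 for *Dkk3* and -0.10 for *Pde9a*.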
